A study of Mus musculus with 19 samples.

Results

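Among medulloblastomas that grew under the Smoothened antagonist NVP-LDE225, Gli1 lay above the level of untreated tumours in some and below it in most. The 16 treated tumours, all labelled resistant, were divided into classes chosen by that readout. A treated tumour was called Gli1-high when its Gli1 signal was above the highest of the 3 vehicle tumours, and Gli1-low when it was below the lowest. This gave 3 Gli1-high and 12 Gli1-low tumours. The remaining treated tumour lay inside the vehicle range and was left out of both classes. The 19 tumours of the series were each measured on 1 Affymetrix array.

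All 19 tumours are labelled with the genotype Ptch+/-p53-/-, in vehicle and treated mice alike. This is the genotype of mice that lack p53 and hold 1 working copy of Ptch. Whether the tumour cells kept that copy was not tested. The cells had been dissociated from tumours of the transgenic mouse and implanted under the skin of nude mice, which lack a thymus and most T cells. The Gli1-high class held 40 mg/kg tumours 7 and 8 and 160 mg/kg tumour 1. The Gli1-low class held 6 from the 40 mg/kg group and 6 from the 160 mg/kg group. The 3 vehicle tumours are labelled sensitive, so treatment and resistance form a single contrast with vehicle. The labels give no age or length of treatment, and they do not say that each tumour came from a separate mouse. The p-values below therefore measure the spread between these samples, which may be partly technical.

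In the Hedgehog pathway, the receptor Patched (Ptch1) holds back the membrane protein Smoothened until a Hedgehog ligand binds it. Smoothened then releases the Gli transcription factors from their inhibitor Sufu. Gli2 is the main activator, Gli3 acts mostly as a repressor, and Gli1 is an activator that is itself switched on by the pathway. Ptch1 and Hhip, which both dampen the pathway, are also its targets, and in cerebellar granule neuron precursors the pathway drives proliferation. Loss of Ptch1 in these precursors gives medulloblastoma, and Gli1 is widely used as the readout of Smoothened inhibition.

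Granule lineage markers, which a medulloblastoma of this kind carries, were present in each class. Zic1, a cerebellar granule lineage transcription factor, had a signal of 4845 ± 49.4 in Gli1-high tumours (SD, n = 3), 5092 ± 679 in Gli1-low tumours (SD, n = 12) and 3448 ± 208 in vehicle tumours (SD, n = 3). Atoh1, the factor that defines granule precursors, had 849 ± 64.2 in Gli1-high, 912 ± 496 in Gli1-low and 1313 ± 113 in vehicle tumours, with a lowest Gli1-low value of 22.5. Signals are on the linear scale of the MAS5 algorithm, which sets each array to a common mean. Array medians of the signal lay between 32.7 and 49.7. Because the samples are whole tumours, a lower signal can mean fewer cells of a type or less RNA per cell, and these cannot be told apart.

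The array holds 1 Gli1 probe set, and its signal chose the classes. Gli1 signal was 598.2 and 2286.2 in 40 mg/kg tumours 7 and 8 and 2637.7 in 160 mg/kg tumour 1. In the 12 Gli1-low tumours it ran from 106.0 to 276.5 with a median of 168.5. The vehicle tumours had 320.3, 327.4 and 338.1, and the unclassified 160 mg/kg tumour 3 had 331.4. The classes are thus unequal in distance from the threshold: 40 mg/kg tumour 7 was the nearest on the high side, and 160 mg/kg tumour 5, at 276.5, the nearest on the low side. No test of Gli1 between the classes is given. Gli1 was left out of the adjustment for multiple testing and of the counts of genes and probe sets called.

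**Figure D1:**
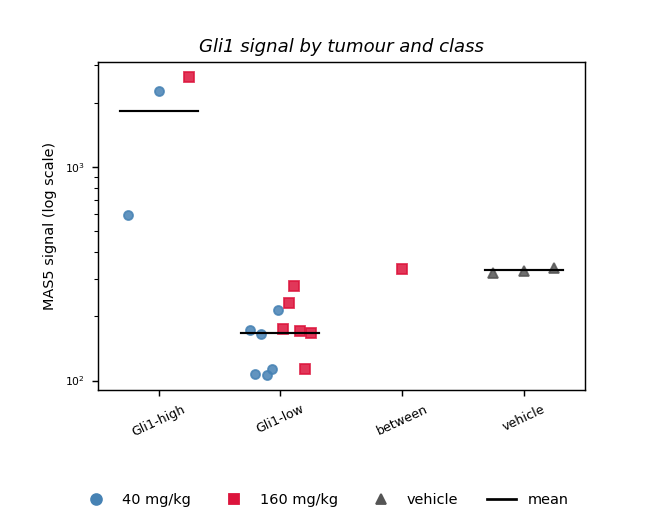
Gli1 signal (MAS5 units, log axis) in each of 19 tumours, grouped as Gli1-high, Gli1-low, between and vehicle; circles are 40 mg/kg, squares 160 mg/kg and triangles vehicle, and bars are class means. The 3 Gli1-high tumours span 598.2 to 2637.7, whereas the Gli1-low tumours stay at or under 276.5 and the vehicle tumours lie between 320.3 and 338.1.

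The comparison of Gli1-high with Gli1-low tumours asks what else differs among tumours that all grew under the drug. In all, 5 genes passed the test across the whole array, and each was higher in Gli1-high tumours: Vip, Itih3, Emp2, Adcy2 and Aard. The test was limma's moderated test with Benjamini-Hochberg adjustment over 31142 probe sets, called at an adjusted p under 0.05, with the 3 classes sharing 1 estimate of the spread. Calls of genes as higher made up 0.0372% of the 13453 genes tested, and calls as lower 0%. At an unadjusted p under 0.05, 2.79% of genes were higher and 1.24% were lower. The tumours were not assigned to these classes by the experiment, so each difference is one that goes along with Gli1 level and not an effect of a treatment.

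Among Hedgehog targets, Ptch1 followed the division by Gli1 most closely. Ptch1 signal was 1755.5, 2427.1 and 1672.7 in the Gli1-high tumours, in the order 40 mg/kg tumours 7 and 8 and 160 mg/kg tumour 1. In the 12 Gli1-low tumours it ran from 484.3 to 1537.4 with a median of 1231.2, and in vehicle tumours it was 1832.2, 2014.4 and 1829.6. Every Gli1-high tumour was above every Gli1-low tumour, and all 12 Gli1-low tumours were below all 3 vehicle tumours. The unclassified tumour, at 1658, was also above all Gli1-low tumours. The log2 difference between Gli1-high and Gli1-low tumours was 0.83 (SE 0.25, 95% confidence interval 0.30 to 1.36), positive in 3 of 3 probe sets, but it did not pass across the array (limma, adjusted p = 0.934). Against vehicle, the log2 difference of Ptch1 was 0.03 in Gli1-high tumours (adjusted p = 0.980) and -0.81 in Gli1-low tumours (adjusted p = 0.0765). Which copy of Ptch the probe sets read in a Ptch+/- tumour cannot be told apart here.

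Hhip, the Hedgehog-binding membrane protein, had a signal of 281.2, 379.8 and 451.7 in the Gli1-high tumours. In Gli1-low tumours it ran from 32.9 to 470.4 with a median of 151.0, and in vehicle tumours it was 213.8, 323.9 and 328.2. The classes overlapped through 160 mg/kg tumour 5, which had the highest Hhip value of all and the highest Gli1 value of the Gli1-low class. The log2 difference between the classes was 1.39 (SE 0.52, 95% confidence interval 0.31 to 2.47), positive in 4 of 4 probe sets, with a limma adjusted p of 1.00. The 3 remaining Hhip probe sets differed by 1.06, 1.30 and 1.44 on the log2 scale.

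The transducers and Gli partners did not divide along the same line. Gli2 had a signal of 1933.7, 547.2 and 388.0 in Gli1-high tumours. In Gli1-low tumours it ran from 456.6 to 4325.8 with a median of 1628.8, against 572.8, 630.7 and 645.1 in vehicle tumours. Among Gli1-high tumours only 40 mg/kg tumour 7, the one with the lowest Gli1, had a Gli2 signal above vehicle, whereas 8 of the 12 Gli1-low tumours did. The highest Gli2 value, 4325.8, came from 160 mg/kg tumour 2, whose Gli1 signal was 175.2. The log2 difference of Gli2 between the classes was -0.75 (95% confidence interval -1.94 to 0.45), so neither a lower nor an equal level is shown. Gli3 was dim, with a signal of 16.6 to 26.3 in Gli1-high, 6.7 to 20.8 in Gli1-low and 20.8 to 33.6 in vehicle tumours.

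Smo, which encodes the drug's target Smoothened, had a signal of 519.9, 480.1 and 384.3 in Gli1-high tumours. It ran from 337.9 to 760.9 in Gli1-low tumours, and was 800.5, 749.1 and 713.1 in vehicle tumours. All 3 Gli1-high and 11 of 12 Gli1-low tumours were below every vehicle tumour, and the log2 difference between the classes was -0.16 (95% confidence interval -0.56 to 0.24). Sufu, the Gli inhibitor, had 229.3, 262.2 and 231.9 in Gli1-high tumours, 201.7 to 397.0 in Gli1-low tumours and 362.4 to 378.3 in vehicle tumours. The log2 difference of Sufu between the classes was -0.17 (95% confidence interval -0.48 to 0.13). Its 2 dimmer probe sets went the other way, by 0.28 and 0.61. Neither gene passed the test against vehicle: the adjusted p for Smo was 0.175 in Gli1-high and 0.106 in Gli1-low tumours, and for Sufu 0.128 and 0.0944.

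**Figure D2:**
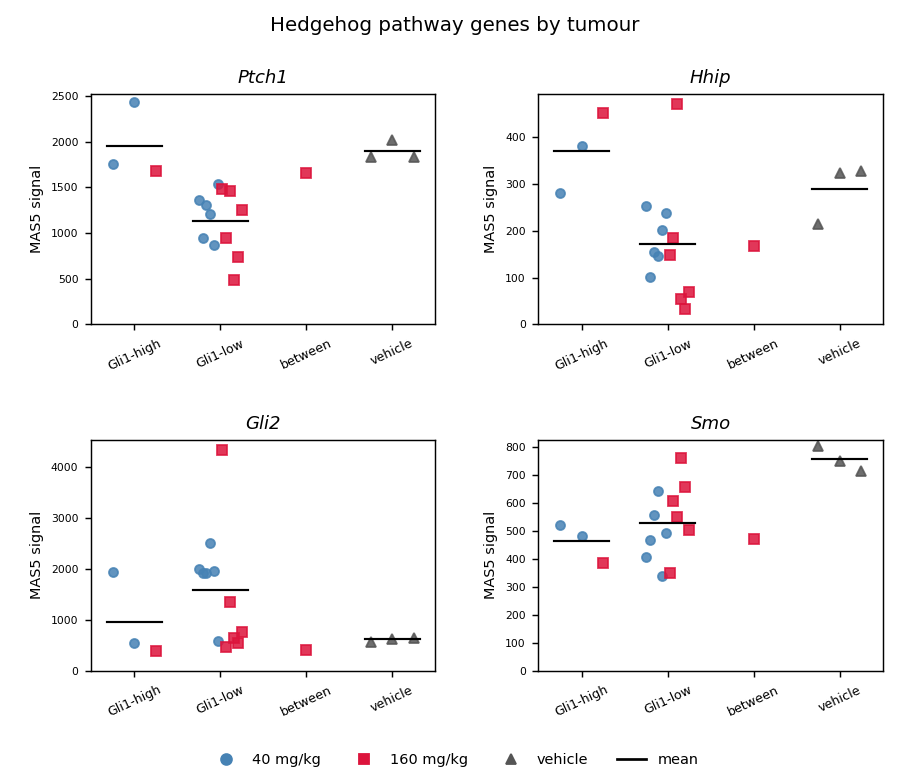
Signal (MAS5 units, linear axes from 0) of Ptch1, Hhip, Gli2 and Smo in each tumour, by class; circles are 40 mg/kg, squares 160 mg/kg, triangles vehicle, and bars are class means. Ptch1 is at or above 1672.7 in the Gli1-high tumours and at or below 1537.4 in the Gli1-low tumours, whereas Gli2 reaches its highest value, 4325.8, in a Gli1-low tumour.

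The other Hedgehog genes were taken from 2 lists. Of 28 measured Hedgehog targets out of 32 listed, 0 passed the limma test between Gli1-high and Gli1-low tumours, and 3 were higher at an unadjusted p under 0.05: Ptch1, Hhip and Sox18, a transcription factor best known in blood vessel cells. Over all genes, 0.0372% were called higher, and 2.79% were higher at the unadjusted level. The 28 targets had a median log2 difference of 0.09, against 0.01 over all genes. The list was read without separating genes that the pathway raises from genes that it lowers. Mycn and Ccnd1, which promote division of granule precursors, differed by -0.16 and 0.08, with 95% confidence intervals of -0.61 to 0.28 and -0.34 to 0.49. Igf2, a growth factor, had a signal of 1042.3, 394.8 and 2073.1 in Gli1-high tumours, 58.7 to 2521.1 in Gli1-low tumours and 152.1, 174.3 and 136.2 in vehicle tumours. Igf2 was above vehicle in all 3 Gli1-high and 9 of 12 Gli1-low tumours, and the classes overlapped.

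Of 39 measured pathway components out of 48 listed, 0 passed between the classes. At an unadjusted p under 0.05, 1 was higher, the glypican Gpc3, which binds Hedgehog ligands at the cell surface, and 2 were lower, Shh and Arrb2. Over all genes 2.79% were higher and 1.24% lower at that level, and counts this small say nothing about the components as a group. Gpc3 signal was 355.7, 321.2 and 617.1 in Gli1-high tumours, against 103.8 to 303.9 in Gli1-low tumours and 143.3 to 175.5 in vehicle tumours. Gpc3 was higher in all 3 Gli1-high tumours than in any other treated or vehicle tumour, with a log2 difference of 1.15 (SE 0.27, limma adjusted p = 0.390). The ligand Shh was dim in every class, averaging 13.8 in Gli1-high, 24.0 in Gli1-low and 33.1 in vehicle tumours. Arrb2, an arrestin, averaged 223 in Gli1-high, 291 in Gli1-low and 283 in vehicle tumours. The 31 measured genes of the primary cilium, where Smoothened signals, had 0 calls, 0 at an unadjusted p under 0.05, and a median log2 difference of -0.04.

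Against vehicle, the background of calls was 0.736% of genes higher and 0.164% lower for Gli1-high tumours, and 2.57% higher and 2.03% lower for Gli1-low tumours. Both comparisons share the vehicle tumours. Among genes listed as Hedgehog targets, the co-receptor Gas1 fell in Gli1-low tumours (log2 difference -1.12, limma adjusted p = 0.0375). Peg3, an imprinted zinc finger gene, rose (0.51, adjusted p = 0.0333), whereas 0 targets passed in Gli1-high tumours. Since the list mixes genes without regard to the direction in which the pathway moves them, neither change is a measure of pathway output. Gas1 averaged 980 in Gli1-high, 765 in Gli1-low and 1571 in vehicle tumours. Among components, the kinase Gsk3b, which phosphorylates Gli proteins, rose in Gli1-high tumours by 0.80 (adjusted p = 0.0348) and in Gli1-low tumours by 0.66 (adjusted p = 0.00821). In Gli1-low tumours, Prkar1a, a regulatory subunit of protein kinase A, also rose, with the kinase Dyrk2 and the ligand transporter Disp2, and the ciliary protein Evc2 fell. A larger number of calls in Gli1-low tumours goes with their larger number, 12 against 3, so the count of calls in a class says nothing about a difference between the classes.

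The gene with the largest difference between Gli1-high and Gli1-low tumours was Vip, which encodes the neuropeptide vasoactive intestinal peptide. Vip signal was 244.5, 1242.4 and 2935 in the Gli1-high tumours. In Gli1-low tumours it ran from 1.0 to 417.1 with a median of 7.65, and in vehicle tumours it was 14.9, 6.3 and 25.1. A single Gli1-low tumour, 160 mg/kg tumour 4 at 417.1, lay above the lowest Gli1-high tumour, and the next Gli1-low value was 26.7. The unclassified tumour had 173.2. The log2 difference was 6.22 (SE 1.01, limma adjusted p = 0.03475), and because most other tumours were near the bottom of the scale this size depends on the pseudocount. Against vehicle, Vip was higher in Gli1-high tumours by 5.90 (adjusted p = 0.0396), and the difference in Gli1-low tumours was -0.32 (adjusted p = 0.886).

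Itih3, a heavy chain of the inter-alpha-trypsin inhibitor that binds hyaluronan in extracellular matrix, had a signal of 1553.2, 628.9 and 2562.1 in the Gli1-high tumours. In Gli1-low tumours it ran from 38.7 to 396.3 with a median of 120.75, and in vehicle tumours it was 150.8, 180.0 and 168.4. The classes did not overlap, and the unclassified tumour, at 882.1, was also above every Gli1-low and vehicle tumour. The log2 difference between Gli1-high and Gli1-low tumours was 3.34 (SE 0.52, limma adjusted p = 0.03475). It was 2.78 at 40 mg/kg and 4.36 at 160 mg/kg.

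Emp2, a membrane protein with 4 spans, had a signal of 160.5, 102.2 and 202.0 in Gli1-high tumours, 18.3 to 65.5 in Gli1-low tumours and 7.3, 17.3 and 20.3 in vehicle tumours. The classes did not overlap, with a log2 difference of 2.16 (SE 0.35, limma adjusted p = 0.03475). A second, dimmer Emp2 probe set differed by 0.72. Adcy2, an adenylyl cyclase that makes cyclic AMP, had 85.4, 138.8 and 165.0 in Gli1-high tumours, 20.4 to 64.1 in Gli1-low tumours and 34.9, 37.2 and 52.8 in vehicle tumours. Its classes did not overlap either, with a log2 difference of 1.84 (SE 0.29, limma adjusted p = 0.03475).

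Aard, a gene named for its alanine- and arginine-rich domain, had the smallest p of all. Aard signal was 245.3, 319.5 and 291.0 in Gli1-high tumours, 63.5 to 145.8 in Gli1-low tumours and 120.6, 105.9 and 104.4 in vehicle tumours. The classes did not overlap, and Gli1-low tumours lay around the vehicle level. The log2 difference was 1.39 (SE 0.19, limma adjusted p = 0.0190), and it was 1.33 at 40 mg/kg and 1.47 at 160 mg/kg. Against vehicle, Aard, Emp2 and Itih3 were also higher in Gli1-high tumours (adjusted p of 0.0166, 0.00432 and 0.0404), whereas Adcy2 narrowly missed the threshold (0.0502). None of the 5 genes passed in Gli1-low tumours against vehicle, where the adjusted p ran from 0.0932 for Emp2 to 0.918 for Aard.

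These 5 calls rest on few tumours. With the vehicle tumours taken out of the fit, 0 probe sets passed between Gli1-high and Gli1-low tumours (1021 at an unadjusted p under 0.05). Without 160 mg/kg tumour 1, 1 probe set passed and 0 of the 5 genes remained called, with log2 differences of 5.42 for Vip, 2.88 for Itih3, 1.94 for Emp2, 1.65 for Adcy2 and 1.37 for Aard. Without 40 mg/kg tumour 8 the count was 12, 11 higher and 1 lower, but only Emp2 and Itih3 of the 5 genes remained called, and Vip, Adcy2 and Aard did not. The count without any 1 of the vehicle tumours was 1, Aard. Leaving out a Gli1-low tumour gave 1 to 3 calls for 40 mg/kg tumours 2 to 5 and 160 mg/kg tumours 4 to 7. The direction was the same for all 5 genes in every setting tried.

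**Figure D3:**
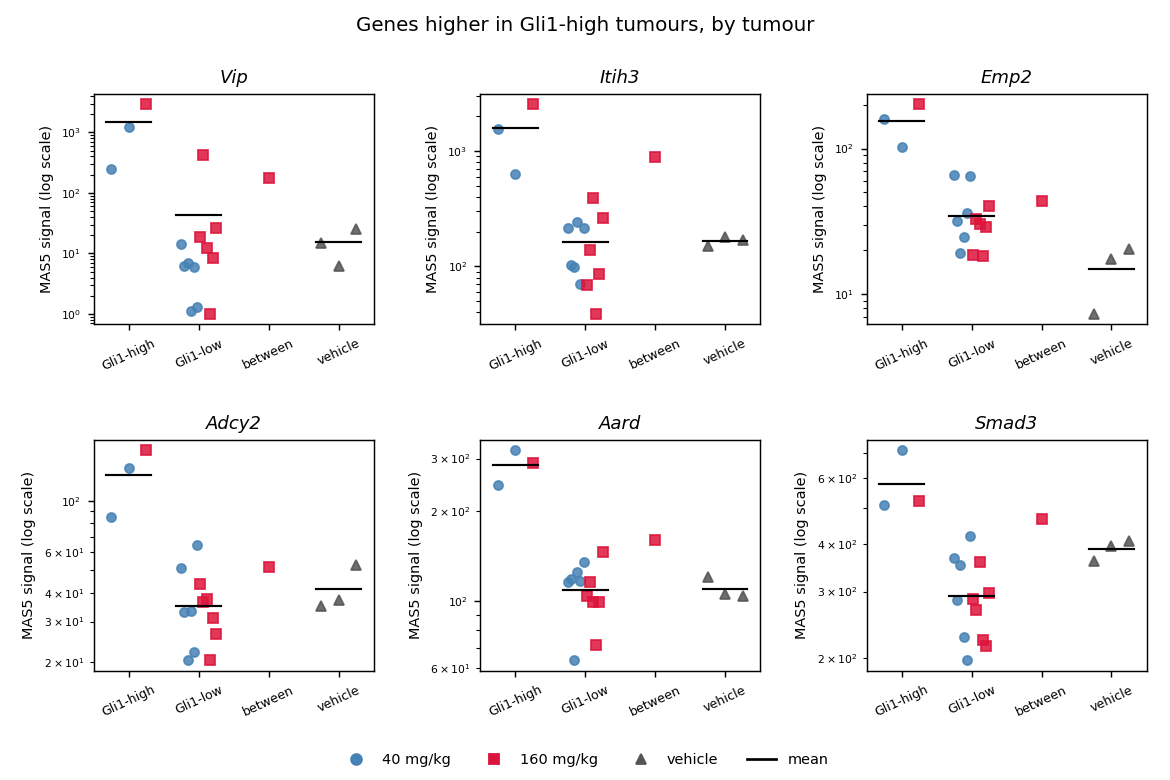
Signal (MAS5 units, log axes) of the 5 genes that passed between Gli1-high and Gli1-low tumours, and of Smad3, which did not, in each tumour by class; circles are 40 mg/kg, squares 160 mg/kg, triangles vehicle, and bars are class means. For Itih3, Emp2, Adcy2, Aard and Smad3 the 3 Gli1-high tumours lie above all Gli1-low tumours, and for Vip 1 Gli1-low tumour, at 417.1, reaches into their range.

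A further 7 genes filled the rule for naming, with the smallest unadjusted p among those that did not pass. The rule asks for a mean signal of at least 50 in the higher class, which Lama3, Rasl11a and Rarres1, like the called genes Vip, Emp2 and Adcy2, met through the Gli1-high class alone. They were Ptp4a3, a phosphatase (log2 difference 1.84, adjusted p = 0.0803), Lama3, a laminin chain of basement membranes (2.12, 0.137), and Smad3, which carries TGF-beta signals to the nucleus (1.01, 0.140). The other 4 were Rasl11a, a small GTPase (1.56), Dtx4, a Deltex ubiquitin ligase linked to Notch (1.63), Rarres1, a retinoid-responsive gene (2.92), and Pld1, phospholipase D1 (2.36), each with an adjusted p of 0.140. Smad3 signal averaged 580 ± 113 in Gli1-high tumours, 292 ± 70.9 in Gli1-low tumours and 389 ± 24.9 in vehicle tumours (SD, n = 3, 12 and 3). Pld1 was higher in 3 of 3 probe sets, Smad3 in 3 of 3 and Dtx4 in 2 of 2. Of the 7, 6 had no overlap between the classes, the exception being Rarres1, where 2 of 3 Gli1-high tumours lay above all Gli1-low tumours. Over all genes, 0.364% separated in this direction. The 7 were picked by their p between these same classes, so their separation follows from that choice and adds no support.

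No gene passed as lower in Gli1-high tumours. Those with the smallest p were Col7a1, the collagen of anchoring fibrils (log2 difference -0.88, adjusted p = 0.562), the semaphorin Sema6a (-0.65, 0.612) and Sesn1, a stress-response gene (-0.45, 0.657). Sema6a averaged 95.1 in Gli1-high, 153 in Gli1-low and 114 in vehicle tumours, and all 3 Gli1-high tumours lay below all 12 Gli1-low tumours. Of its 3 probe sets, 2 were higher in Gli1-high tumours. The other 9 genes named by the rule, Dhrs1, Lekr1, Gamt, Slc25a14, Edc3, Snrpf, Bsn, Csad and Prpf4b, had log2 differences between -0.84 and -0.28 in the probe set that stands for each gene.

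Separation of the classes without overlap was counted over all genes. All 3 Gli1-high tumours lay above all 12 Gli1-low tumours for 49 genes, 0.364% of those tested, and below them for 8, 0.0595%. The 49 included 4 of the 5 called genes, Ptch1, Gpc3 and Smad3, with Hes1, a transcription factor downstream of Notch, the integrin subunit Itgb1, the matrix protease Mmp14 and the matrix protein Vtn. Hes1 signal was 127.1, 138.1 and 137.5 in Gli1-high tumours, 57.0 to 121.1 in Gli1-low tumours and 125.1 to 201.5 in vehicle tumours. All 12 Gli1-low tumours had less Hes1 than any vehicle tumour, and Hes1 fell in that class (log2 difference -0.83, limma adjusted p = 0.0184). In Gli1-high tumours the difference from vehicle was -0.27 (adjusted p = 0.621). Directly between the classes it was 0.55 and did not pass (adjusted p = 0.9998).

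Promoter sequences are shown for Ptch1, the direct Gli target that separated the classes, and for Vip and Itih3, which had the largest called differences. They run from 250 bases before to 50 bases after the gene's start, 5′ to 3′ on the gene's strand, from RefSeq on GRCm38.p6. The positions are chr13:63565686-63565985 on the minus strand for Ptch1, chr10:5638968-5639267 on the plus strand for Vip and chr14:30923538-30923837 on the minus strand for Itih3. Capitals mark a match to the Gli consensus GACCACCCA, searched on both strands with up to 1 mismatch.
Ptch1: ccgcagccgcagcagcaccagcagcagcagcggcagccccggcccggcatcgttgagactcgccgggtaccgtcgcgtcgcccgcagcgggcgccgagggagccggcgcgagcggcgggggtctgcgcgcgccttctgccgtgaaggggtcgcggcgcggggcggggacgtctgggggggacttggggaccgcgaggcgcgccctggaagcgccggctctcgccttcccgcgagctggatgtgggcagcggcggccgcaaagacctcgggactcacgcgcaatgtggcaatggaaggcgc
Vip: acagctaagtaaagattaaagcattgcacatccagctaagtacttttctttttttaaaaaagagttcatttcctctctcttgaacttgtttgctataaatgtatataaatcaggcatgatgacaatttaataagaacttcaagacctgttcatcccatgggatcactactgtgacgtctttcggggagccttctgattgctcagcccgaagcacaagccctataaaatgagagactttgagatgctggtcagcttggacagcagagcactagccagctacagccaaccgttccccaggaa
Itih3: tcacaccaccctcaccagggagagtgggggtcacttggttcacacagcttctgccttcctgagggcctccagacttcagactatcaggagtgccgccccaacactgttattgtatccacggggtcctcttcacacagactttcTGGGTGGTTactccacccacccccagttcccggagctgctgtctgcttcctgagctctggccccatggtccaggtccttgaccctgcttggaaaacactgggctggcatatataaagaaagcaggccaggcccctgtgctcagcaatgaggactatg
The exact consensus was in 0 of these 3 windows and not in that of Hhip, and in 83 of 32851 promoters of the table, 0.253%. With up to 1 mismatch it was in the Itih3 window once, as TGGGTGGTT on the opposite strand, and in 6.74% of all promoters. A match is a description of the letters and not evidence of a binding site, and these windows leave out more distant elements.

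None of the genes beside Gli1 on its chromosome passed the test. The 10 measured genes on each side, among them Ddit3, Kif5a, Shmt2 and Lrp1, had 0 calls between Gli1-high and Gli1-low tumours by limma, 0 at an unadjusted p under 0.05, and a median log2 difference of -0.05. For 0 of the 20 did the classes separate without overlap. Over all genes, 0.0372% were called, and 2.79% were higher and 1.24% lower at an unadjusted p under 0.05. The classes separated for 0.364% of all genes upward and 0.0595% downward. With shares this small, counts of 0 among 20 genes say nothing about the neighbours as a group.

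Within the 12 Gli1-low tumours, the relation of Gli1 to 9 Hedgehog genes was computed. Hhip had the highest Pearson r, 0.542 (permutation p = 0.0681, adjusted 0.613), and a Spearman rho of 0.601 (permutation p = 0.0420, adjusted 0.378). Without the 2 tumours farthest from the median Gli1 signal, 160 mg/kg tumour 5 and 40 mg/kg tumour 4, r was 0.435. Ptch1 had r = 0.365 (adjusted permutation p = 0.682) and rho = 0.497 (adjusted 0.468). None of the 9 relations passed the adjustment.

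Each list of genes outside the Hedgehog pathway had 0 calls between Gli1-high and Gli1-low tumours (limma). Over all genes 0.0372% were called, so 0 calls in lists of this size, here and below, say nothing about the groups. The list farthest from 0 among the pathway lists was that of interferon-induced genes, with 26 of 30 measured and a median log2 difference of 0.68 against 0.01 over all genes. Of them, 6, Ifit1, Ifit3, Usp18, Irf7, Xaf1 and Rtp4, were higher at an unadjusted p under 0.05, against 2.79% of all genes. Ifit1, an antiviral RNA-binding protein, had a signal of 69.0, 338.3 and 177.0 in Gli1-high tumours, 18.8 to 376.5 in Gli1-low tumours and 482.6, 759.9 and 580.2 in vehicle tumours. The classes overlapped over most of their range, and all treated tumours were below all vehicle tumours. Against vehicle the median of the list was -1.16 in Gli1-high tumours, with 1 call, Slfn8, and -1.86 in Gli1-low tumours, with 18 calls, all lower. Over all genes, 0.164% were called lower in Gli1-high and 2.03% in Gli1-low tumours.

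Genes of neuronal maturation lay above vehicle in both classes and had 0 calls between them. The median log2 difference of the 33 measured genes was -0.20 between the classes, 0.94 for Gli1-high against vehicle and 1.04 for Gli1-low against vehicle. Cntn2, an adhesion molecule of migrating granule neurons, averaged 429 in Gli1-high, 479 in Gli1-low and 38.3 in vehicle tumours, and it rose by 3.25 in Gli1-high tumours (adjusted p = 0.00432) and by 3.45 in Gli1-low tumours (adjusted p = 0.000106). Gap43, a growth cone protein, Snap91, a protein of synaptic vesicle recycling, and Reln, a secreted guidance protein, also passed in both. Neurod1, a differentiation factor, had 2758.6, 2516 and 2454.2 in Gli1-high tumours, 2123.7 to 5490 in Gli1-low tumours and 1864.6, 1254.9 and 1313.4 in vehicle tumours. All treated tumours were above vehicle, and the Gli1-high tumours lay in the lower part of the Gli1-low range (log2 difference -0.54, adjusted p = 1.00).

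Cell cycle lists had 0 calls between the classes and medians near 0. Mitosis, DNA replication and G1 genes, 29, 29 and 24 measured, had median log2 differences of 0.03, 0.03 and 0.01. In the G1 list, Cdkn2b, an inhibitor of cyclin-dependent kinases, was higher at an unadjusted p under 0.05, with a mean of 117 in Gli1-high, 84.0 in Gli1-low and 68.3 in vehicle tumours. Granule precursor factors, 26 measured, had a median of -0.05, and Sox11 and Nhlh2, transcription factors of young neurons, passed as higher against vehicle in both classes.

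Notch genes had a median log2 difference of 0.23 over 19 measured, with Notch2, Hes1 and Heyl higher at an unadjusted p under 0.05. At that level, 2.79% of all genes were higher. Heyl, a Notch-induced repressor, had a signal of 136.0, 87.0 and 235.7 in Gli1-high tumours, 17.4 to 140.7 in Gli1-low tumours and 29.2 to 61.7 in vehicle tumours (log2 difference 1.67, adjusted p = 0.450). Among 16 Wnt genes the median was 0.07, and Dkk2 and Wif1, secreted Wnt regulators, and the receptor Fzd1 were higher at that level. Dkk2 had 48.4, 26.1 and 257.2 in Gli1-high tumours, 6.4 to 45.1 in Gli1-low tumours and 8.7 to 10.5 in vehicle tumours, so its mean leans on 160 mg/kg tumour 1. The IGF and PI3K list, 33 measured, had a median of -0.03, with Igfbp7, an IGF-binding protein, and the GTPase Rheb higher at an unadjusted p under 0.05. Igfbp7 averaged 807 in Gli1-high, 485 in Gli1-low and 318 in vehicle tumours, and against vehicle it passed in Gli1-high tumours (log2 difference 1.28, adjusted p = 0.0476) but not in Gli1-low tumours (0.57, 0.168).

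The remaining pathway lists had medians near that of all genes or few members past an unadjusted p of 0.05. At that level, 2.79% of all genes were higher and 1.24% lower. MAPK feedback genes had a median of 0.14 with Phlda1 and Fgfr2 higher, hypoxia and glycolysis genes 0.16 with Hk2 and Adm higher, and immediate early genes 0.25 with Jun and Klf4 higher. Jun, part of the AP-1 transcription factor, averaged 940 ± 123 in Gli1-high tumours, 624 ± 113 in Gli1-low tumours and 656 ± 24.5 in vehicle tumours (SD, n = 3, 12 and 3), with an adjusted p of 0.399. Cholesterol synthesis, BMP and TGF-beta, apoptosis and efflux genes had medians of -0.03, 0.02, -0.07 and 0.10, with 0 genes past an unadjusted p of 0.05.

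**Figure D4:**
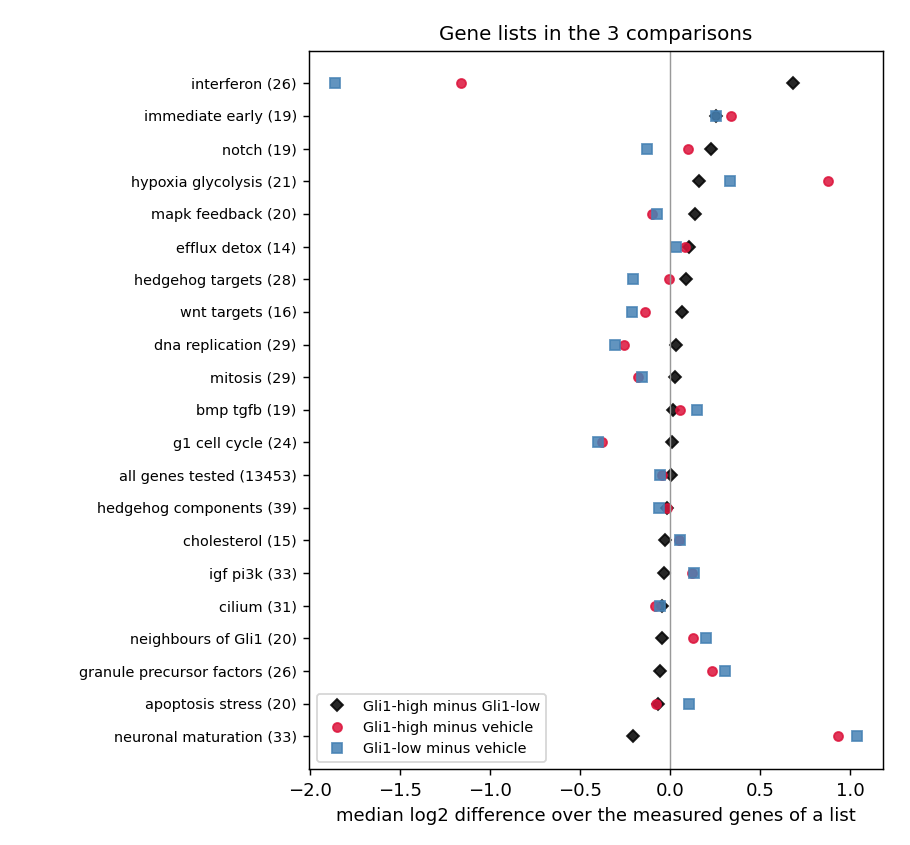
Median log2 difference (x axis) over the measured genes of each list (y axis, number measured in brackets) of the pathway lists, the genes beside Gli1 and all genes, for Gli1-high minus Gli1-low (diamonds), Gli1-high minus vehicle (circles) and Gli1-low minus vehicle (squares). Between Gli1-high and Gli1-low tumours the medians shown stay between -0.20 and 0.68, whereas interferon genes reach -1.86 and neuronal maturation genes 1.04 against vehicle.

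Markers of host cells were compared beside these results, and none of their lists had a call between the classes. With 0.0372% of all genes called, this says nothing about the host cells. At an unadjusted p under 0.05, 2.79% of all genes were higher and 1.24% lower. The summed signal of 20 muscle markers ran from 1143 to 3855 in Gli1-high tumours, 444 to 24858 in Gli1-low tumours and 1790 to 5207 in vehicle tumours. That of 18 macrophage markers ran from 1282 to 3570 in Gli1-high, 1107 to 8867 in Gli1-low and 1896 to 2815 in vehicle tumours. For 19 fibroblast and matrix markers it ran from 6974 to 11092 in Gli1-high, 4172 to 13417 in Gli1-low and 5840 to 11430 in vehicle tumours. The median log2 difference of these markers between the classes was 0.24. Thy1 and Fap were higher in Gli1-high tumours at an unadjusted p under 0.05. Other members averaged lower, such as Col1a1 (187 in Gli1-high against 243 in Gli1-low tumours) and Postn (485 against 620). In these 3 lists the Gli1-high sums lay inside the Gli1-low range, as did those of the endothelial, skin, astrocyte and oligodendrocyte lists. In 3 lists with few measured genes they reached outside it. The sum of 2 erythroid markers ran from 6.4 to 1503 in Gli1-high, 7.2 to 340 in Gli1-low and 47.9 to 141 in vehicle tumours. That of 6 adipocyte markers ran from 255 to 1097 in Gli1-high, 287 to 2633 in Gli1-low and 622 to 2114 in vehicle tumours, with a median log2 difference of -0.92 between the classes. The 1 measured lymphocyte marker ran from 2.7 to 38.8 in Gli1-high, 4.7 to 31.7 in Gli1-low and 24.5 to 43.7 in vehicle tumours. Of 13 measured astrocyte and radial glia markers, only Aqp4, a water channel, passed an unadjusted p of 0.05. It was lower, averaging 3.50 in Gli1-high, 48.8 in Gli1-low and 11.7 in vehicle tumours. The list as a whole leaned the other way, with a median log2 difference of 0.29 between the classes. With the muscle markers as a covariate, the count of probe sets called between the classes was 5, as without them. The part of the other host cell types in the differences was not tested.

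The dose of the drug was compared last. The difference between Gli1-high and Gli1-low tumours had the same sign at 40 mg/kg, with 2 Gli1-high tumours, as at 160 mg/kg, with 1, for each of the 5 called genes and for Ptch1 and Hhip. With dose as a covariate, 2 of the 5 genes, Vip and Aard, passed the test, and Itih3, Emp2 and Adcy2 did not. Ptch1 differed by 0.81 at 40 mg/kg and by 0.76 at 160 mg/kg on the log2 scale. A test of whether the difference depended on dose called 0 probe sets (limma, 757 at an unadjusted p under 0.05). Without 40 mg/kg tumour 7 it called 11, and without 160 mg/kg tumour 1 it could not be fitted, since the class then has no tumour at that dose.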

How the data were processed

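The authors deposited 1 linear signal intensity per probe set and array; the submitters' processing notes name MAS5. MAS5 scales each array separately, subtracts mismatch signal and gives unstable values for dim probe sets. Precision is set by the number of arrays. Of 45101 probe sets, 64 controls were left out. Gene names come from the platform annotation.

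Values were tested as log2 of signal plus 2.5, which understates changes of dim genes. A probe set was kept if, on 3 or more arrays, it exceeded that array's 40th percentile, which left 31143 for 13454 genes. A gene was represented by its kept probe set with the highest mean. R 4.3.3 and limma 3.58.1 (lmFit, eBayes with trend, 15 residual degrees of freedom) fitted 3 class means over 18 tumours with two-sided p-values, checked on simulated data. Genes named are up to 12 per direction between the classes, calls first and then the smallest p, without clone-like symbols and with a mean signal of at least 50, the Hedgehog genes, and the members with the smallest p of each list. The classes, the members and the lists were chosen with earlier results of these data known. Permutation tests used 1e+05 resamples. Alternatives were other scalings, pseudocounts, filters, covariates and fits, and leaving out each tumour. Scan dates were not used, so batches were not tested.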

Additional observations from a re-analysis of the deposited data

Results flagged for a closer look

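In all, 11 values stood far from the other 7 tumours of their dose group, by the gap to the nearest tumour over the whole range. The 8 tumours of each dose were examined for the Gli genes, Ptch1, Hhip, Smo, Sufu and the 5 called genes, 24 sets in all. Chance alone sets apart about 1 in 20 such sets if values follow a normal distribution. The gaps were taken on linear signals, where a few tumours can lie far above the rest, so the rate here may be higher. Gli1 chose the classes, and the genes called between them were picked for high values in these same tumours. The values of Gli1 and of the called genes here therefore repeat that choice.

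In 160 mg/kg tumour 1, 6 values stood apart: Gli1 at 2637.7, Vip at 2935, Itih3 at 2562.1, Emp2 at 202, Adcy2 at 165 and Aard at 291. In 40 mg/kg tumour 8, Gli1 at 2286.2 and Vip at 1242.4 stood apart, and in 40 mg/kg tumour 7, Itih3 at 1553.2. The remaining values came from Gli1-low tumours: Gli2 at 4325.8 in 160 mg/kg tumour 2, where the next value was 1348, and Sufu at 343.4 in 40 mg/kg tumour 6, where the next was 262.2.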

How the results depend on the processing

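All counts are of probe sets. Of the 30 genes refitted under each alternative, which were the called and largest-difference genes with Ptch1, Hhip, Gli2, Gli3, Smo and Sufu, 0 reversed; Lama3, Rarres1, Rasl11a, Col7a1 and Gli3 did not pass the filter at the 60th percentile. Between Gli1-high and Gli1-low tumours, the count of 5 stayed at 5 after quantile normalization, subtraction of array medians, a 2-fold threshold or the muscle covariate, and was 6 without a filter. It was 3 with a pseudocount of 1, 14 with 32, 2 with a filter at the 60th percentile, 1 without variance trend, 11 with array weights, 2 with dose as a covariate and 3 with the unclassified tumour added to Gli1-low. It was 0 with only the compared groups in the limma fit (1021 at an unadjusted p under 0.05). Of 31 alternatives, Aard stayed called in 27, Adcy2 and Itih3 in 15, Emp2 in 12 and Vip in 11. Against vehicle, the main counts were 224 for Gli1-high and 1200 for Gli1-low tumours. For Gli1-high tumours the count was 379 after quantile normalization, 140 without a filter, 96 without variance trend, 3386 with array weights, 896 with only the compared groups and 101 with dose. For Gli1-low tumours it was 7991 with array weights, 547 with dose and 530 at 2-fold or more. Subtracting array medians made 80.1% of the Gli1-low calls higher, against 61% in the main fit, and 92% of the Gli1-high calls, against 82.1%. Leaving out 1 tumour gave 1 to 12 calls between the classes, and 11 to 345 for Gli1-high and 226 to 1495 for Gli1-low tumours against vehicle. The dose interaction, refitted only without 40 mg/kg tumour 7 or 8, gave 11 and 0 calls. The Gli1-high count against vehicle was 11 with 160 mg/kg tumour 1 left out, 47 without 40 mg/kg tumour 7, 22 to 39 without a vehicle tumour, 124 to 148 without 40 mg/kg tumour 2 or 3 or 160 mg/kg tumour 7, and 345 with 160 mg/kg tumour 2 left out. The Gli1-low count was 226 to 388 without a vehicle tumour. Replicate numbers recur across groups but do not pair the samples: the deviations of 14 same-numbered pairs correlated at -0.128 to 0.09, and 1 of 16 treated tumours correlated best with its own number. With the replicate block the counts were 0 between the classes (1295 at an unadjusted p under 0.05), 4 for Gli1-high and 520 for Gli1-low tumours. Median differences of the Hedgehog lists and of the genes beside Gli1 moved by less than their spread under each alternative. Classes by another Gli1 probe set could not be run, since the array has 1. The causes of these changes were not tested.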
